A study of Mus musculus with 18 samples.

Results

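Tongue libraries that carry both mutant alleles (E20/p53) were set against tongue libraries that carry the PIK3CA allele alone (E20). The comparison holds 12 of the 18 libraries of the series, 6 E20/p53 and 6 E20, taken as the columns that the deposited table names for these groups. The E20/p53 mice carried LSL-PIK3CA H1047R, a heterozygous LSL-p53 R172H allele and K14-Cre. The E20 mice carried LSL-PIK3CA H1047R, and the labels name no Cre for them. By their titles, E20/p53 is a double gain of function mutant of Pik3ca and p53, and E20 has a gain of function mutation of Pik3ca. LSL is a stop element between loxP sites that blocks an allele as long as Cre recombinase has not cut it out, and K14-Cre is Cre under the promoter of keratin 14, a gene of basal cells of stratified epithelia. So both groups share the PIK3CA allele, and they differ by the p53 allele and, as far as the labels go, by the Cre. The tissue is given as squamous epithelium of the tongue in all 12. The series title speaks of tumours begun with the carcinogen 4NQO, but the labels of these libraries give no exposure, age or sex, and they do not say which library came from a tumour, from cultured cells or from which animal.

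PIK3CA encodes the catalytic subunit of PI3-kinase, which makes the membrane lipid that recruits AKT, and H1047R makes the enzyme more active. p53 is a transcription factor that damage and oncogenic signals stabilise, and it switches on genes of cell cycle arrest, repair and death. R172H disturbs the fold of the DNA-binding domain, so that the protein no longer turns on the usual targets and can hold back the wild type protein. Interferons are cytokines that act through JAK kinases and transcription factors on genes with an interferon response element.

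The 12 totals lay between about 14592000 and about 18176000 reads. Levels are given in CPM, counts per 1000000 reads on the scale of the deposited log2 values, and they are not divided by gene length, so they compare libraries and not genes. In each group replicates 1 to 3 and 4 to 6 formed separate blocks. Across genes, the 12 library pairs inside a block had a Pearson's r of 0.993 to 0.995. The 18 pairs joining both blocks of a group had 0.838 to 0.937, and the 36 pairs of E20/p53 with E20 libraries 0.801 to 0.928. Over 11967 genes with 5 CPM or more in a block, the median gap between the block means was 0.51 log2 in E20/p53 and 0.30 log2 in E20, while the median SD inside a block was 0.07 log2 in both. The labels do not say whether the libraries are separate animals, so that a p-value covers only library-to-library spread, and that spread may be technical. For each gene the 4 differences between an E20/p53 block mean and an E20 block mean were therefore taken on the log2 scale, and the blocks were said to agree when all 4 had the same sign.

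The labelled tissue was checked against its markers, and the blocks went apart. The keratins of the basal layer are made from Krt5 and Krt14. Krt5 stood at 127 ± 8.78 and 0 ± 0 CPM in E20/p53 libraries 1 to 3 and 4 to 6, against 6.51 ± 1.35 and 0.0226 ± 0.0391 CPM in E20 libraries 1 to 3 and 4 to 6 (mean ± SD, n = 3 per block, in this order throughout). Krt14 stood at 483 ± 10.6 and 0.199 ± 0.0586 CPM in the E20/p53 blocks, against 66.5 ± 7.29 and 0.0222 ± 0.0385 CPM in the E20 blocks. Trp63, the master regulator of stratified epithelia, was split by the E20/p53 block, with 63.6 and 2.96 CPM in E20/p53, against 15.7 and 3.29 CPM in E20. Thus the defining markers of the labelled tissue were at or near 0 in libraries 4 to 6 of both groups. The 15 basal keratinocyte markers summed to 2168 to 2220.0 CPM in E20/p53 1 to 3 and 369.7 to 449.7 CPM in E20/p53 4 to 6, against 419.3 to 455.3 CPM in E20 1 to 3 and 476.6 to 500.3 CPM in E20 4 to 6. In libraries 4 to 6 most of that sum was Dst, a cytoskeletal linker gene, with 317.8 to 396.6 CPM in E20/p53 4 to 6 and 437.3 to 465.1 CPM in E20 4 to 6. Dst was most of the sum in E20 1 to 3 too, at 241.1 to 294.9 CPM. The fibroblast list of 12 genes summed to 2754 to 4229 CPM over the E20/p53 libraries and 4058 to 6510.0 CPM over the E20 libraries, and the 10 smooth muscle and myofibroblast genes to 689.8 to 5288 CPM in E20/p53 and 2362 to 7419 CPM in E20. In E20/p53 1 to 3 nearly all of the fibroblast sum was Vim, at 1995 to 2054 CPM, and S100a4, at 648.0 to 667.7 CPM, while Lum, Thy1, Dpt, Pi16, Mfap5, Fap and Col14a1 did not pass 0.392 CPM there. Vim and S100a4 were most of the sum in the other blocks too, with 2128 to 3789 CPM and 1114 to 1975 CPM in E20. Lum and Pi16 did not pass 0.343 CPM in any library. The smooth muscle genes Des, Actg2, Lmod1 and Cnn1 did not pass 1.01 CPM in E20/p53 1 to 3. The 18 suprabasal and stress keratinocyte genes summed to 402.8 to 418.9 CPM in E20/p53 1 to 3 and stayed under 85.1 CPM in all other blocks. Pkp1, a desmosome plaque gene, made up 320.4 to 334.8 CPM of it in E20/p53 1 to 3, where Krt1, Krt4, Krt13, Ivl, Sprr3, Tgm1 and Dsg1a did not pass 0.562 CPM. The sum reached at most 11.8 CPM for endothelial markers and 60.9 CPM for adipocyte markers. Skeletal muscle genes, 20 in the list, added up to only 8.147 to 8.945 CPM in the first E20/p53 block. The second E20/p53 block reached 484.9 to 508.9 CPM. E20 had 350.3 to 357.0 CPM in its first block and 225.7 to 236.6 CPM in its second. Chrna1 and Myf5 of that list held no read in the first E20/p53 block. Every other library had at least 44.22 CPM of Chrna1 and 45.22 CPM of Myf5. The 16 leukocyte markers had a sum of 21.1 to 27.1 CPM in E20/p53 and 14.5 to 28.4 CPM in E20, and the common leukocyte antigen Ptprc did not pass 0.169 CPM in any library. The largest part was Cd68 in E20/p53 1 to 3 (19.06 to 22.53 CPM) and Cd74 in E20/p53 4 to 6 (19.09 to 20.34 CPM). It was Lyz2 in E20 1 to 3 (13.32 to 16.15 CPM) and Cd74 in E20 4 to 6 (10.23 to 12.39 CPM). In bulk RNA, fewer cells of a type and less RNA per cell cannot be told apart.

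**Figure D1:**
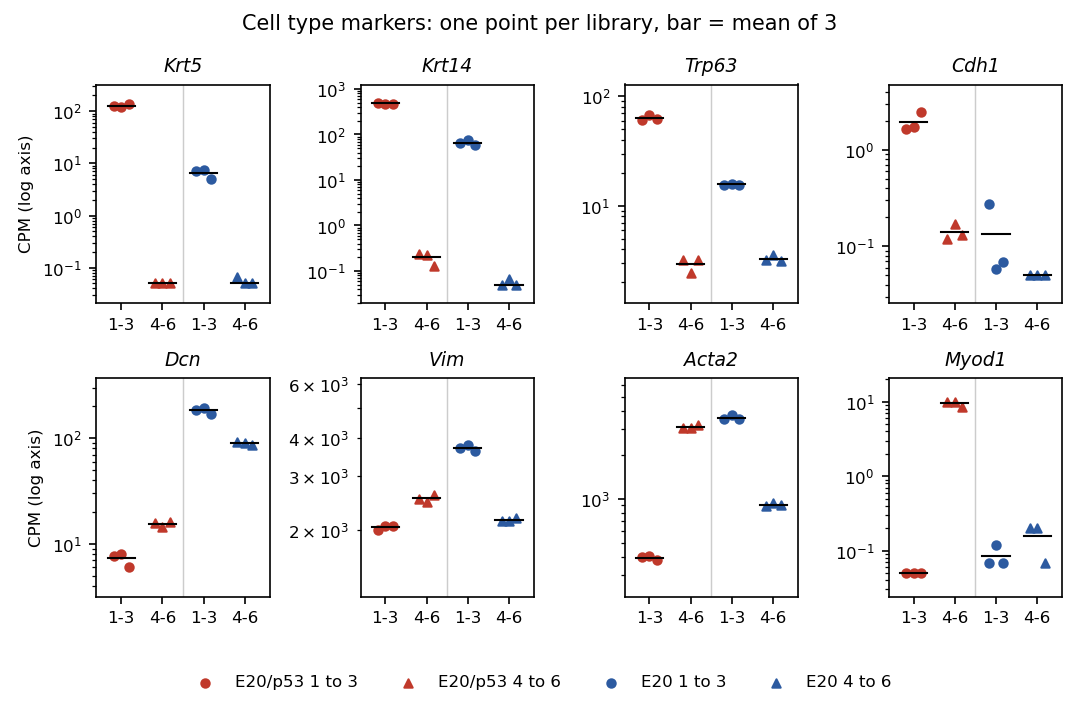
Level of 8 cell type markers in each library (CPM, log axis, values under 0.05 drawn at 0.05). Circles are libraries 1 to 3 and triangles libraries 4 to 6, red for E20/p53 and blue for E20, and bars are means of 3. The keratins Krt5 and Krt14 are high in E20/p53 1 to 3 and near 0 in libraries 4 to 6 of both groups, while Dcn is lower in every E20/p53 library.

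Of 14612 genes tested, limma called 4980 (34.1%) at an adjusted p under 0.05, 2653 higher (18.2%) and 2327 lower (15.9%) in E20/p53. With plain library totals in place of the deposited scaling 3555 were higher and 1955 lower, so that 64.5% of the calls were higher, against 2653 of 4980 with the deposited scaling, and the median of all genes moved by 0.11 log2. With TMM scaling 2269 were higher and 2619 lower (46.4% of the calls higher), and with median-of-ratios scaling 2426 and 2501 (49.2%). Both blocks of each group agreed for 5659 genes (38.7%). Another 3354 genes (23%) were split by the E20/p53 block, which means that E20/p53 1 to 3 lay on a different side of both E20 blocks than E20/p53 4 to 6. A further 1227 genes (8.4%) were split by the E20 block, and 4372 (29.9%) were mixed. Of the called genes, 2515 higher and 2218 lower ones (17.2% and 15.2% of those tested) had agreeing blocks, and the other 247 were mixed. No split gene was called, which the definition of a split makes nearly certain. All 4 block differences reached 2-fold for 255 higher genes (1.75%) and 462 lower genes (3.16%). Single libraries of the groups did not overlap for 3397 genes (23.2%). Naming genes by a low adjusted p with agreeing blocks favours such genes, so their lack of overlap is no further support. When the fit allowed for the likeness of libraries inside a block (an estimated correlation of 0.933), 79 genes were higher (0.541%) and 366 lower (2.5%). All 445 of these had agreeing blocks, which a fit with so high a correlation nearly requires. With the 4 block means as the only samples limma called 0 genes, with 927 at an unadjusted p under 0.05. Without E20/p53 libraries 4 to 6 the test called 4549 higher and 4326 lower genes. In the rest of the text the adjusted p is that of the 12 libraries, and the second one, called the block-adjusted p, is that with the estimated correlation. The block-adjusted p still counts all 12 libraries while there are only 4 blocks, so it can be too small. Counts of lists below are to be read against the 18.2% higher and 15.9% lower of all genes. Each is followed by how many members remained called with the block correlation and, where leaving out 1 library moved it by over 1.5 times, by those libraries. Genes linked to X inactivation and Y-linked genes are left out. Of the 13 tested ones 9 were called, against 34.1% of all genes. Since the labels give no sex, the sex of the animals and the genotype cannot be told apart in any result.

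**Figure D2:**
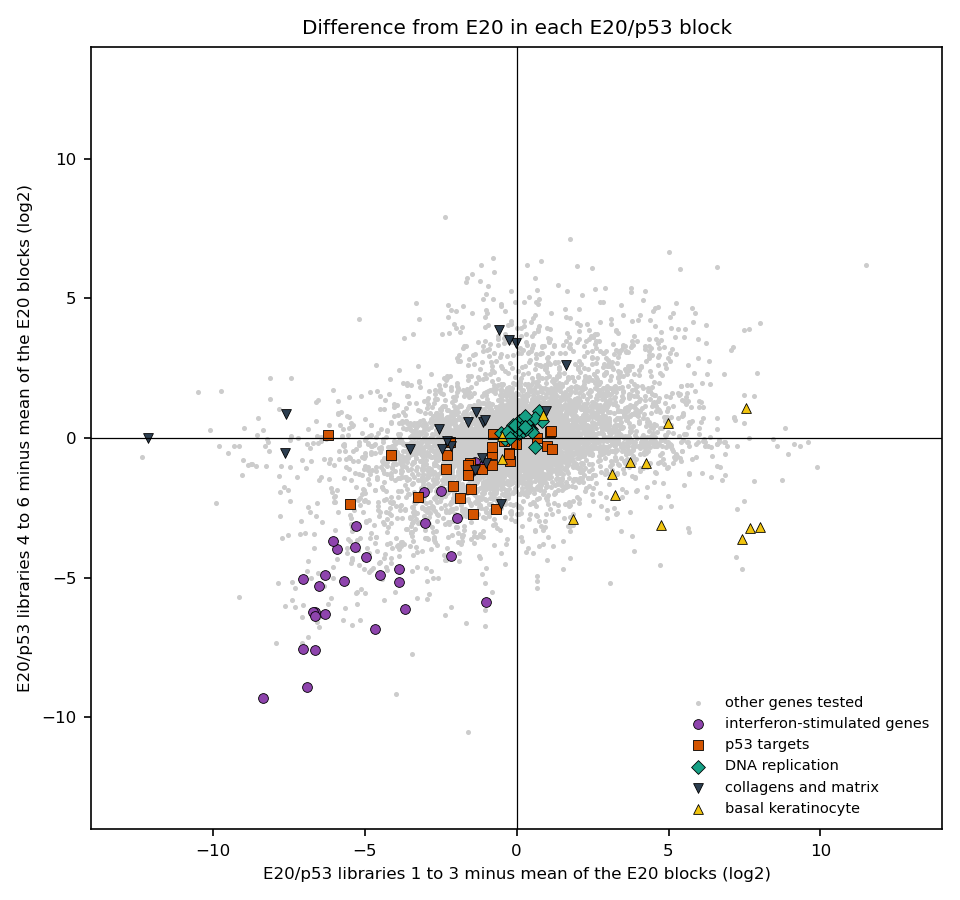
Each point is a gene tested, with the mean log2 difference from the E20 blocks of E20/p53 libraries 1 to 3 on the x axis and of libraries 4 to 6 on the y axis. Nearly all interferon-stimulated genes lie at the lower left, below 0 in both blocks, but Samhd1 does not. While 18 p53 targets fell with agreeing blocks, the basal keratinocyte genes spread to the right along x, and 7 of 21 collagen and matrix genes were split by the E20/p53 block.

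Trp53 and Pik3ca, the genes whose alleles define the groups, did not pass the test. Values per gene do not tell mutant from wild type RNA, so the levels check neither label. Trp53 (chromosome 11, 69580359 to 69591873 in mm10) ran at 168 to 314 CPM (median 249) in E20/p53, against 180.2 to 208 CPM (median 195) in E20 (log2 0.29, SE 0.17, adjusted p = 0.213). It was split by the E20/p53 block, with 179 ± 10.8 and 312 ± 2.65 CPM in the E20/p53 blocks and 187 ± 11.1 and 199.5 ± 7.72 CPM in the E20 blocks. Only libraries 4 to 6 of E20/p53 stood above all E20 libraries. Pik3ca (chromosome 3, 32397671 to 32468486) ran at 77.1 to 88.7 CPM (median 84.4) in E20/p53, against 76.8 to 98.9 CPM (median 87.3) in E20 (log2 -0.07, SE 0.08, adjusted p = 0.540), with mixed blocks. The table names mouse genes, and the sources used here do not say whether RNA of a human PIK3CA allele was counted.

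Genes that p53 switches on fell in E20/p53. Of 32 targets tested 19 were lower and 2 higher, and 18 of the lower ones had agreeing blocks, against 15.2% of all genes with agreeing blocks and a lower level. The median difference over the list was -1.15 log2, beside 0.05 over all genes tested. It had the same sign in each block pair, -1.20 and -0.79 for E20/p53 1 to 3 against the E20 blocks 1 to 3 and 4 to 6, and -1.11 and -0.46 for E20/p53 4 to 6. Cdkn1a (chromosome 17, 29090976 to 29100727) encodes p21, the inhibitor that carries out the arrest by p53. It ran at 6.39 to 65.0 CPM (median 32.4) in E20/p53, against 169 to 598 CPM (median 359.9) in E20. The groups did not overlap, and each block stood apart, with 6.91 ± 0.458 and 61.4 ± 3.80 CPM in E20/p53 and 567 ± 27.3 and 172 ± 2.31 CPM in E20 (log2 -3.92, SE 0.73, adjusted p = 0.00163, block-adjusted p = 0.00241). Mdm2 (chromosome 10, 117688875 to 117710758), the ligase that degrades p53, ran at 54.8 to 72.4 CPM (median 63.3) in E20/p53, against 109 to 213 CPM (median 153) in E20 (log2 -1.25, SE 0.20, adjusted p = 5.22e-04, block-adjusted p = 0.0150). Its blocks agreed, although E20/p53 4 to 6 and E20 4 to 6 were 0.67 log2 apart.

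Among the best supported targets was Ephx1, a hydrolase of epoxides, at 52.8 to 121 CPM (median 84.3) in E20/p53 and 393 to 675 CPM (median 518) in E20 (log2 -2.68, SE 0.27, adjusted p = 2.18e-05, block-adjusted p = 5.36e-05). Phlda3, which keeps AKT off the membrane, ran at 58.9 to 79.6 CPM (median 70.3) in E20/p53 and 163 to 301 CPM (median 218) in E20 (log2 -1.65, SE 0.17, adjusted p = 3.00e-05). Pltp, a phospholipid carrier, ran at 38.6 to 46.4 CPM (median 41.9) in E20/p53 and 65.6 to 90.8 CPM (median 79.2) in E20 (log2 -0.89, SE 0.10, adjusted p = 3.46e-05, block-adjusted p = 0.0664). These 3 genes showed no overlap between the groups, as did 23.2% of all genes, and their blocks agreed, which the rule that named them asks for. Ercc5, a nuclease of excision repair, was even across the blocks, with 18.7 to 21.6 CPM (median 20.9) in E20/p53 and 41.5 to 50.5 CPM (median 44.8) in E20 (log2 -1.12, SE 0.07, adjusted p = 5.71e-07, block-adjusted p = 0.0892). Ccng1, or cyclin G1, which was chosen after its values were seen, ran at 72.4 to 94.3 CPM (median 81.6) in E20/p53 and 220.0 to 482 CPM (median 349.8) in E20 (log2 -1.99, adjusted p = 6.35e-05). With Cdkn1a and Ephx1, 7 targets were at least 2-fold lower in all 4 block differences, which 3.16% of all genes were. With the block correlation 10 targets remained called, and 0 with the 4 block means.

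The spread between blocks was wide for the targets too. Without E20 libraries 1 to 3 the number of lower targets was 14. The other 11 members that did not pass included the repair sensor Ddb2, which was split by the E20/p53 block with 15.3 and 5.23 CPM in E20/p53 and 6.02 and 7.58 CPM in E20, and Fdxr, split by the E20 block with 16.5 and 18.6 CPM in E20/p53 and 14.3 and 19.6 CPM in E20. These names, and those of the called Tigar and Sesn1, were chosen after their values were seen. The number of higher targets was 1 or 2 when single libraries were left out. Tigar, a phosphatase that lowers glycolysis, rose with agreeing blocks (log2 0.69, adjusted p = 0.0168), and Sesn1, a stress sensor, rose with mixed blocks (log2 0.66, adjusted p = 0.0455).

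**Figure D3:**
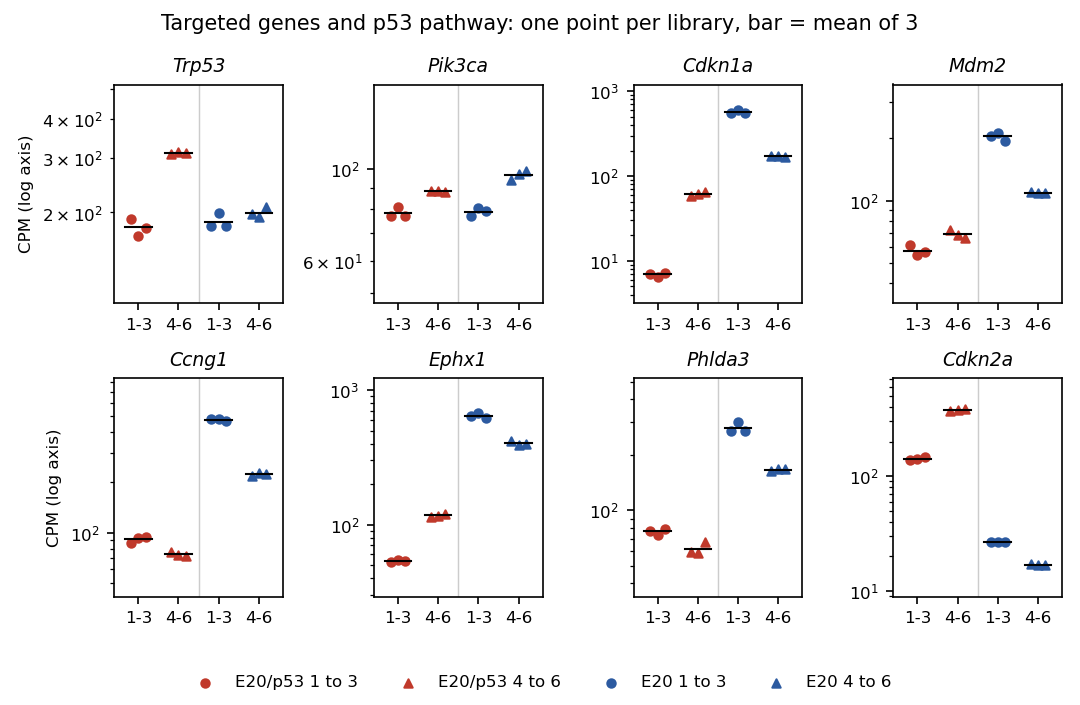
Level in each library (CPM, log axis) of Trp53, Pik3ca, 5 p53 targets and Cdkn2a. Circles are libraries 1 to 3 and triangles libraries 4 to 6, red for E20/p53 and blue for E20, and bars are means of 3. All E20/p53 libraries lie below all E20 libraries for the 5 targets and above them for Cdkn2a, and Trp53 is high in E20/p53 libraries 4 to 6.

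The genes that regulate p53 moved less, apart from Cdkn2a. Of 14 tested, 5 were higher and 3 lower, 7 of these 8 with agreeing blocks. With the block correlation 1 higher and 0 lower remained, and 3 were higher without E20 library 2 or any of E20/p53 libraries 1 to 3. Cdkn2a encodes p16, an inhibitor of CDK4 and CDK6, and in another reading frame p19ARF, an inhibitor of Mdm2, and the gene level does not tell them apart. It ran at 138 to 383 CPM (median 259) in E20/p53, against 16.7 to 26.9 CPM (median 21.9) in E20. Every E20/p53 library was above every E20 library, with 142 ± 4.72 and 376 ± 6.41 CPM in the E20/p53 blocks and 26.7 ± 0.210 and 16.9 ± 0.256 CPM in the E20 blocks (log2 3.44, SE 0.32, adjusted p = 1.08e-05, block-adjusted p = 1.08e-05). The kinase gene Chek1, which signals replication stress, rose (log2 0.44, adjusted p = 0.00673), as did the deubiquitinase gene Usp7, which acts on p53 and Mdm2 (log2 0.33, adjusted p = 0.00293). Cop1, a further ligase of p53, fell (log2 -0.43, adjusted p = 4.75e-04). These 3 shifts were small, from 41.7 and 31.3 CPM in E20/p53 and 26.9 and 26.2 CPM in E20 for Chek1 to 194 and 228 CPM in E20/p53 and 168 and 168 CPM in E20 for Usp7, and their block-adjusted p was 0.553, 0.457 and 0.548 for Chek1, Usp7 and Cop1.

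Interferon-stimulated genes gave the lowest list median, at -4.77 log2. Of 32 tested, 30 fell, all with agreeing blocks, 28 of them at least 2-fold in all 4 block differences, and 28 stayed called with the block correlation. The medians of the block pairs were -4.64 and -5.39 for E20/p53 1 to 3 against the E20 blocks 1 to 3 and 4 to 6, and -4.08 and -5.64 for E20/p53 4 to 6. Beside it, 1 of 5 tested leukocyte markers was higher and 1 lower, and the sum over all 16 was 21.1 to 27.1 CPM in E20/p53 and 14.5 to 28.4 CPM in E20. Because the largest part of that sum was Cd68, Cd74 or Lyz2, depending on the block, it does not show an even leukocyte content. The higher marker lost its call without any 1 of E20 libraries 3 to 6 or E20/p53 libraries 1 to 3. The members that did not pass were Samhd1, a nucleotide hydrolase (log2 0.03), and Oas3 (log2 -3.44), both with mixed blocks. With the 4 block means 0 members were called, as for all genes.

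The promoters of some of these genes are shown because they hold the letters of the interferon response element. In the 250 bases before each start in the RefSeq promoter table (GRCm38.p6), 23 of the 32 genes matched, and 10 of their 25 windows (40%) held GAAA, any 2 bases and GAAA again, on either strand, where overlapping matches count. Of 14064 windows of all genes tested 2.62% held it, and of the 32851 windows of all genes 2.98%. A match describes letters and is not a measured binding site. For each gene 120 bases are given, 5′ to 3′ along the gene, in lower case with these matches in capitals, which on the other strand read TTTC, any 2 bases and TTTC. The stretches are chr19:34583367-34583486 (plus strand) for Ifit3, chr19:34607763-34607882 (plus) for Ifit3b, chr19:34640764-34640883 (plus) for Ifit1, chr4:156200819-156200938 (minus) for Isg15, chr5:120907526-120907645 (minus) for Oas1a and chr8:71537517-71537636 (minus) for Bst2.
Ifit3: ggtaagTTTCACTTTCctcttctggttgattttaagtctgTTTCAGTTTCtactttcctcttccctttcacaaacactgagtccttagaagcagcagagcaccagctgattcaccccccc
Ifit3b: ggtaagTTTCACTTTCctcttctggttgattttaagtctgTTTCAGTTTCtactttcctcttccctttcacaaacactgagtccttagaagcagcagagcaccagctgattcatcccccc
Ifit1: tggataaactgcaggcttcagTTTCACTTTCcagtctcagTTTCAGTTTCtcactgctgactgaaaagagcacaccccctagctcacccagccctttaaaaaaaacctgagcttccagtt
Isg15: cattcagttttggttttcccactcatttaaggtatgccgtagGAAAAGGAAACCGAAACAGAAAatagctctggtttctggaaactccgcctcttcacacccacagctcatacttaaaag
Oas1a: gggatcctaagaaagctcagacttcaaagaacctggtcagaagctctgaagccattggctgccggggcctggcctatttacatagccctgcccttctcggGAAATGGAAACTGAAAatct
Bst2: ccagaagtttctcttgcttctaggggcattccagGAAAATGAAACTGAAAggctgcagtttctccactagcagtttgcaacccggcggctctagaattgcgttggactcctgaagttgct

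Ifit3 and its near copy Ifit3b encode proteins that bind foreign RNA, and the shown stretches of both hold 2 matches each. Ifit3b ran at 0.987 to 1.36 CPM (median 1.04) in E20/p53, against 51.1 to 139 CPM (median 100.4) in E20 (log2 -6.31, SE 0.25, adjusted p = 1.52e-08, block-adjusted p = 5.32e-05). Ifit3 ran at 1.24 to 2.67 CPM (median 1.68) in E20/p53, against 88.3 to 233 CPM (median 168) in E20 (log2 -6.43). No E20/p53 library came near the lowest E20 library in either gene, but the rule that named both asks for no overlap. How reads that fit both copies were shared is not given, so the copies, like Oas1a and Oas1g, are uncertain as single genes. Isg15, a ubiquitin-like modifier whose stretch holds 3 overlapping matches, had 6.58 ± 0.622 and 17.4 ± 2.25 CPM in the E20/p53 blocks and 227 ± 46.1 and 306 ± 12.3 CPM in the E20 blocks (log2 -4.61, SE 0.32, adjusted p = 1.03e-06). Ifit1, the cap-sensing member of the family, had 2.06 ± 0.506 and 8.09 ± 0.443 CPM in E20/p53 and 182 ± 33.5 and 409.7 ± 21.6 CPM in E20 (log2 -6.04, adjusted p = 3.39e-06). Bst2, or tetherin, which holds virus particles at the cell surface, had 21.4 ± 1.11 and 12.04 ± 0.665 CPM in E20/p53 and 221 ± 30.7 and 452 ± 12.1 CPM in E20 (log2 -4.29, adjusted p = 6.88e-07, block-adjusted p = 1.36e-05). In each of these genes E20 4 to 6 was the highest block. Isg15, Ifit1 and Bst2 are named for their printed promoters, a choice made after their values were seen.

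Further members spanned a wide range of levels. Oas2, an enzyme that makes the activator of RNase L, was at 0 to 0.0617 CPM (median 0.0280) in E20/p53 and 11.2 to 116 CPM (median 62.1) in E20. Its fitted difference (log2 -8.83, SE 0.68, adjusted p = 2.64e-06) depends on the 1 read added to each value, since E20/p53 4 to 6 held no read. Oas1a had 0.726 ± 0.201 and 0.342 ± 0.0511 CPM in E20/p53 and 42.0 ± 7.73 and 140.0 ± 3.73 CPM in E20 (log2 -7.11, adjusted p = 4.64e-07). Rtp4, a receptor transporter that interferon induces, ran at 4.16 to 7.83 CPM (median 5.35) in E20/p53 and 96.1 to 172 CPM (median 137) in E20 (log2 -4.61, SE 0.19, adjusted p = 2.03e-08, block-adjusted p = 1.36e-05). Oasl2, a relative of the OAS enzymes, ran at 4.63 to 7.96 CPM (median 6.18) in E20/p53 and 139 to 408 CPM (median 289.9) in E20 (log2 -5.39, adjusted p = 1.62e-07). Trim30a, a ligase that restrains inflammatory signals in mice, had 1.69 and 2.35 CPM in the E20/p53 blocks and 104 and 293 CPM in the E20 blocks (log2 -6.45, adjusted p = 2.56e-07), and the mitochondrial protein gene Ifi27l2a 1.16 and 0.226 CPM in E20/p53 and 82.0 and 224 CPM in E20 (log2 -7.92, adjusted p = 1.21e-06).

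**Figure D4:**
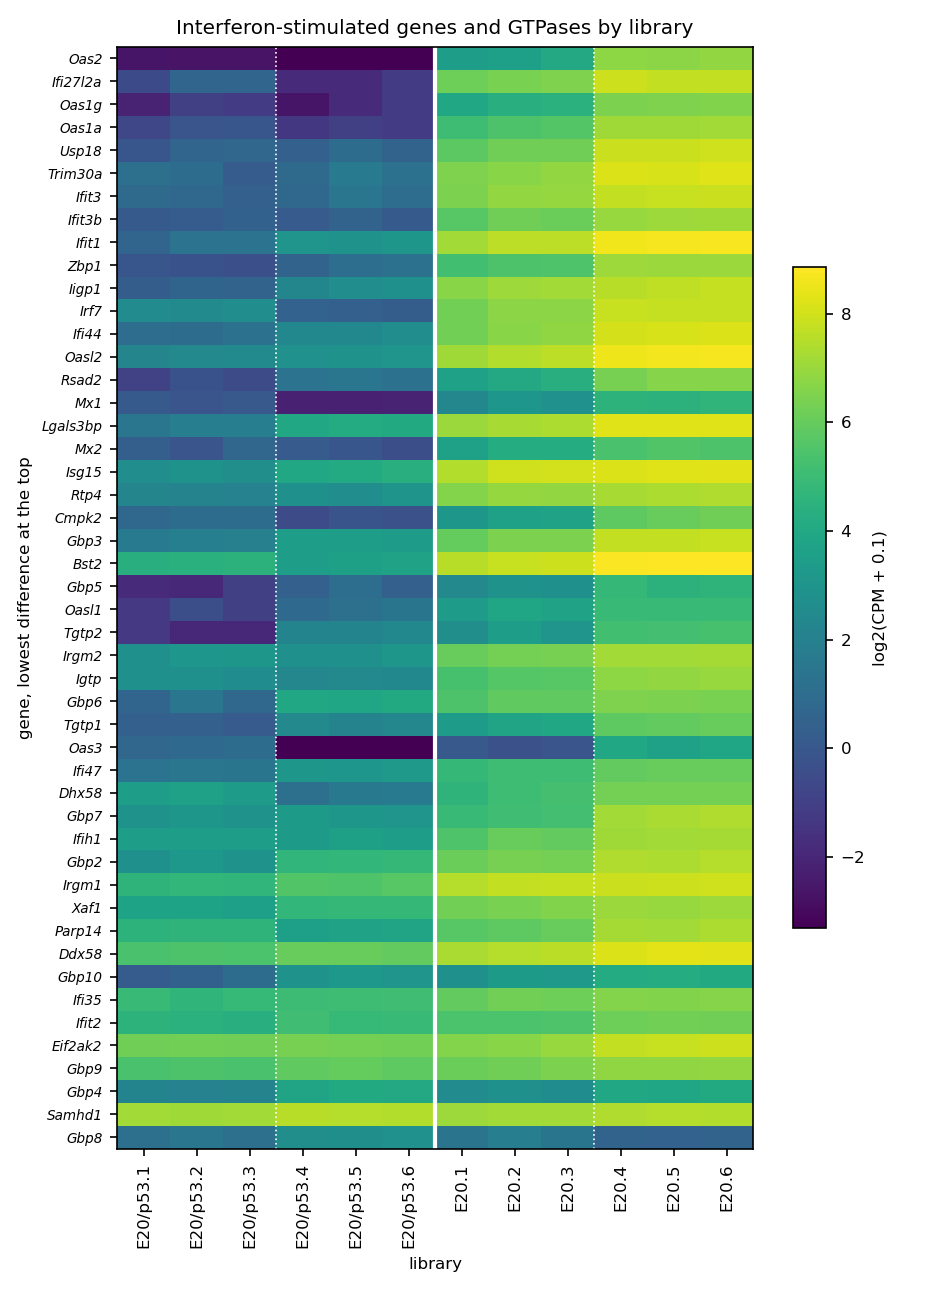
Level of 48 interferon-stimulated genes and GTPases (log2 of CPM plus 0.1, colour) in the 6 E20/p53 libraries on the left and the 6 E20 libraries on the right, sorted by the difference. The E20/p53 columns are darker for nearly all genes down to Gbp9, E20 libraries 4 to 6 are the brightest, and Oas3, Gbp4, Samhd1 and Gbp8 did not pass the test.

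The interferon-inducible GTPases, which attack the vacuoles of pathogens, fell as well: 14 of 16 were lower, all with agreeing blocks, and 10 with the block correlation. In the fit without E20/p53 library 3 there was 1 higher. Their median was -3.39 log2. Irgm2 ran at 6.76 to 8.76 CPM (median 7.57) in E20/p53, against 65.1 to 147 CPM (median 112) in E20 (log2 -3.75, SE 0.21, adjusted p = 2.77e-07). Irgm1 had 25.5 ± 1.48 and 47.5 ± 3.11 CPM in E20/p53 and 205 ± 21.9 and 245 ± 8.68 CPM in E20 (log2 -2.68, adjusted p = 2.12e-06), and Igtp, or Irgm3, 6.51 ± 0.527 and 5.04 ± 0.203 CPM in E20/p53 and 47.8 ± 6.56 and 117 ± 7.22 CPM in E20 (log2 -3.69, adjusted p = 2.91e-06). Iigp1, a GTPase that coats the vacuoles, ran at 1.11 to 6.91 CPM (median 3.05) in E20/p53 and 103 to 222 CPM (median 164) in E20 (log2 -5.84, SE 0.47, adjusted p = 3.63e-06). Gvin1, a giant GTPase outside the list, ran at 0.802 to 1.79 CPM (median 0.943) in E20/p53 and 63.9 to 164 CPM (median 119) in E20 (log2 -6.58, SE 0.28, adjusted p = 2.24e-08). The groups did not overlap in any of these 5, which for Gvin1 was part of the rule that named it. They did not overlap in 23.2% of all genes either. The same promoter letters stood in 9 of 11 windows (81.8%) of the 10 GTPase genes with a RefSeq promoter.

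Among the receptors, kinases, factors and sensors of the pathway 9 of 20 were lower and 1 higher, all 10 with agreeing blocks. Of these, 6 lower and 0 higher remained with the block correlation. The higher one lost its call without any 1 of 10 of the 12 libraries, all but E20/p53 1 and 3. Irf9, a DNA-binding factor of the type I interferon response, ran at 16.4 to 21.8 CPM (median 18.8) in E20/p53, against 78.1 to 127 CPM (median 107) in E20 (log2 -2.45, SE 0.14, adjusted p = 2.56e-07, block-adjusted p = 1.40e-04). Stat2, a factor that works with Irf9, had 48.8 and 21.7 CPM in the E20/p53 blocks and 124 and 307 CPM in the E20 blocks (log2 -2.59, adjusted p = 2.36e-04). Stat2 and the STING gene Tmem173, the adaptor of DNA sensing, are named after their values were seen, and Tmem173 had 3.03 and 22.4 CPM in E20/p53 and 48.5 and 59.3 CPM in E20 (log2 -2.69, adjusted p = 0.00447). Trex1, the nuclease that removes cytosolic DNA, had 12.4 ± 0.543 and 11.8 ± 1.12 CPM in E20/p53 and 32.8 ± 2.29 and 52.0 ± 1.55 CPM in E20 (log2 -1.77, adjusted p = 6.54e-06). Stat3, the factor of interleukin-6 signals, was lower by less, with 187 ± 3.94 and 187 ± 1.08 CPM in E20/p53 and 247 ± 3.38 and 247 ± 9.77 CPM in E20 (log2 -0.40, adjusted p = 5.04e-05). Values of the receptor genes were 86.2 and 117 CPM in E20/p53 and 106 and 146 CPM in E20 for Ifnar1, and 39.9 and 71.8 CPM in E20/p53 and 67.0 and 94.1 CPM in E20 for Ifnar2, and both had mixed blocks and did not pass (adjusted p = 0.109 and 0.0503).

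Of 17 genes of MHC class I presentation 10 were lower and 0 higher, 9 of them with agreeing blocks. Of these, 3 remained with the block correlation. The lower ones numbered 6 without E20 library 5 or 6 or any of E20/p53 libraries 1 to 3, and without E20/p53 library 4 there was 1 higher. Tap1, a subunit of the pump that brings peptides to the class I molecules, ran at 15.6 to 19.9 CPM (median 19.1) in E20/p53, against 40.2 to 58.4 CPM (median 48.4) in E20 (log2 -1.41, SE 0.10, adjusted p = 1.27e-06). B2m, the light chain of every class I molecule, ran at 418 to 473 CPM (median 449) in E20/p53 and 615 to 837 CPM (median 726) in E20 (log2 -0.68, SE 0.10, adjusted p = 2.65e-04, block-adjusted p = 0.0846). The immunoproteasome subunit gene Psmb10 had 17.3 ± 0.614 and 27.1 ± 3.42 CPM in E20/p53 and 47.0 ± 4.41 and 59.4 ± 1.70 CPM in E20 (log2 -1.29, adjusted p = 1.16e-04), and the proteasome activator gene Psme1 60.8 ± 0.949 and 62.6 ± 0.468 CPM in E20/p53 and 92.4 ± 4.09 and 139 ± 1.38 CPM in E20 (log2 -0.88, adjusted p = 3.10e-04). The heavy chains H2-K1 and H2-D1 did not pass, and their blocks did not agree: H2-K1 had 288 and 221 CPM in E20/p53 and 219 and 358 CPM in E20, and H2-D1 271 and 115 CPM in E20/p53 and 125 and 115 CPM in E20. Members of this gene family share sequence, so their levels are uncertain.

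Of 19 chemokines and cytokines tested 7 were lower and 0 higher, 6 with agreeing blocks, and 1 remained with the block correlation. Without a single one of E20/p53 libraries 4 to 6 there were 1 or 2 higher. Il6 ran at 9.01 to 10.2 CPM (median 9.83) in E20/p53, against 15.8 to 22.9 CPM (median 17.8) in E20 (log2 -0.93, SE 0.11, adjusted p = 8.72e-05). Cxcl10, which draws T cells and is induced by interferon, had 0.987 ± 0.135 and 13.7 ± 0.534 CPM in E20/p53 and 28.0 ± 5.24 and 164 ± 21.5 CPM in E20 (log2 -4.15, adjusted p = 0.00499), with the blocks of each group far apart. It lost its call without E20 libraries 4 to 6 (log2 -2.87, adjusted p = 0.086). Ccl7, a monocyte attractant, had 28.9 ± 1.17 and 78.0 ± 2.74 CPM in E20/p53 and 99.1 ± 7.13 and 122 ± 5.53 CPM in E20 (log2 -1.21, adjusted p = 0.00941), and Cxcl1, a neutrophil attractant, 496 ± 24.6 and 337 ± 6.51 CPM in E20/p53 and 705 ± 54.7 and 558 ± 27.5 CPM in E20 (log2 -0.62, adjusted p = 0.00694). Cd80, which co-stimulates T cells, ran at 0.112 to 0.455 CPM (median 0.158) in E20/p53 and 12.6 to 40.3 CPM (median 26.1) in E20 (log2 -6.51, SE 0.43, adjusted p = 7.14e-07).

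Part of the mitosis and DNA replication genes were higher by small amounts. Of 25 mitosis genes 15 were higher and 1 lower, 14 and 1 with agreeing blocks, and of 25 DNA replication genes 13 were higher, all with agreeing blocks, and 0 lower, against a background of 17.2% higher with agreeing blocks. The medians were 0.35 and 0.33 log2 for mitosis and replication. Another 4 mitosis genes and 1 replication gene were split by the E20/p53 block. No member passed a 2-fold minimum or kept its call with the block correlation, and the lower mitosis gene lost its call in 7 of the 12 fits that left out 1 library. Aurora kinase A (Aurka), which builds the spindle poles, ran at 112 to 129 CPM (median 122) in E20/p53, against 85.4 to 93.5 CPM (median 87.3) in E20 (log2 0.47, SE 0.05, adjusted p = 4.24e-05, block-adjusted p = 0.363). Cyclin B1 (Ccnb1), which starts mitosis, ran at 128 to 147 CPM (median 139) in E20/p53 and 87.6 to 103 CPM (median 92.9) in E20 (log2 0.56, SE 0.06, adjusted p = 4.97e-05). The checkpoint kinase gene Bub1 had 135 ± 1.38 and 116 ± 7.84 CPM in E20/p53 and 74.9 ± 0.533 and 87.0 ± 1.75 CPM in E20 (log2 0.63, adjusted p = 9.14e-05), and the kinetochore motor gene Cenpe 144 ± 7.05 and 149 ± 11.3 CPM in E20/p53 and 89.1 ± 2.53 and 111 ± 2.40 CPM in E20 (log2 0.56, adjusted p = 3.94e-04).

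For replication, Chaf1a, a chaperone that places histones behind the fork, had 106 ± 7.43 and 125 ± 2.58 CPM in E20/p53 and 66.1 ± 3.20 and 62.0 ± 2.73 CPM in E20 (log2 0.84, SE 0.07, adjusted p = 6.89e-06, block-adjusted p = 0.0729). Mcm10, which activates the helicase, ran at 49.8 to 57.2 CPM (median 53.03) in E20/p53, against 28.8 to 33.4 CPM (median 31.9) in E20 (log2 0.74, SE 0.06, adjusted p = 3.53e-06, block-adjusted p = 0.143). The polymerase gene Pole had 101 ± 6.35 and 84.1 ± 3.51 CPM in E20/p53 and 55.9 ± 2.24 and 55.5 ± 2.87 CPM in E20 (log2 0.72, adjusted p = 2.70e-05), and the origin factor gene Orc1 20.38 ± 0.717 and 22.1 ± 1.67 CPM in E20/p53 and 14.9 ± 1.09 and 12.2 ± 0.651 CPM in E20 (log2 0.65, adjusted p = 3.28e-04). Single libraries of the groups did not overlap in these 8 genes, as in 23.2% of all genes, and naming them by adjusted p makes this likely. The proliferation antigen gene Mki67, named after its values were seen, was split by the E20/p53 block, with 564 and 279 CPM in E20/p53 and 358 and 484 CPM in E20 (adjusted p = 0.840).

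Of 16 G1 cyclins, kinases and inhibitors only 3 passed, and 0 remained with the block correlation. Without E20 library 5 or E20/p53 library 6 there were 4 higher in place of 2. The CDK4 and CDK6 inhibitor gene Cdkn2c fell, with 24.3 to 28.0 CPM (median 26.5) in E20/p53 and 37.5 to 42.2 CPM (median 40.7) in E20 (log2 -0.62, SE 0.06, adjusted p = 2.23e-05). Cyclin E2 (Ccne2) was at 17.5 and 22.1 CPM in E20/p53 and 15.7 and 9.35 CPM in E20 (log2 0.70, adjusted p = 0.0145), and cyclin D2 (Ccnd2) at 1067 and 556 CPM in E20/p53 and 542 and 366 CPM in E20 (log2 0.79, adjusted p = 0.0200). Both rose, but the groups overlapped, and both calls were lost without E20 libraries 4 to 6 (adjusted p = 0.133 for Ccne2 and 0.219 for Ccnd2). Another 7 of the 16 genes were split by the E20/p53 block.

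**Figure D5:**
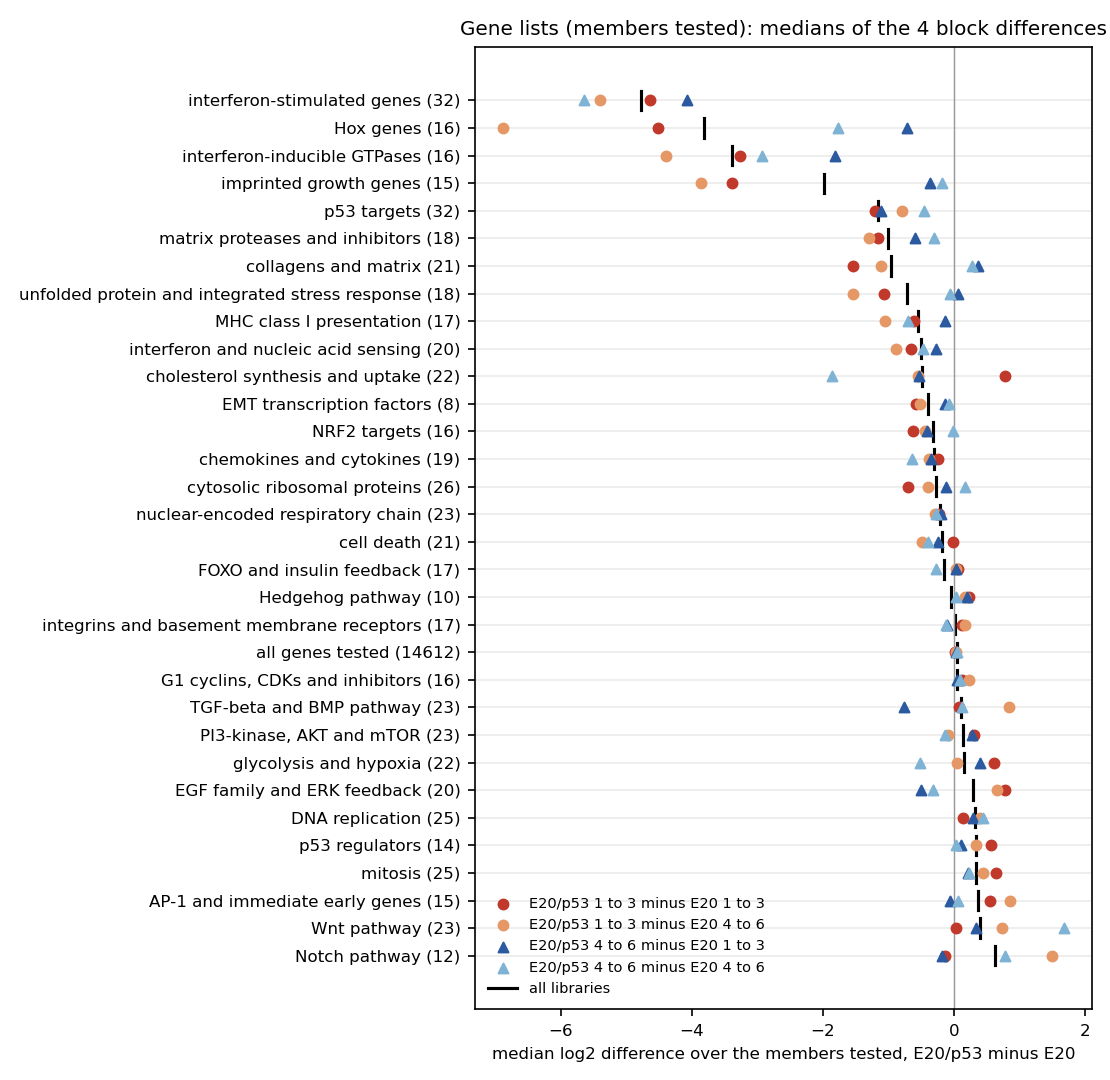
Median log2 difference of the tested members of each pathway list and of all genes tested, with their number in brackets. Symbols are the 4 block differences (red and orange circles for E20/p53 1 to 3, blue triangles for E20/p53 4 to 6) and black bars the fit over all libraries. The interferon and p53 target lists lie below 0 in all 4 differences and the mitosis and replication lists slightly above, while collagens and EGF family genes change sign with the E20/p53 block.

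In the PI3-kinase pathway itself 6 of 23 genes were higher and 4 lower, all 10 with agreeing blocks, and 0 and 1 remained with the block correlation. Pik3r1, the regulatory subunit that binds and restrains the catalytic one, ran at 172 to 186 CPM (median 179) in E20/p53, against 292 to 397 CPM (median 338) in E20 (log2 -0.92, SE 0.09, adjusted p = 1.34e-05, block-adjusted p = 0.0106). Tsc2, a brake on mTOR, had 113 ± 2.13 and 122 ± 6.76 CPM in E20/p53 and 85.3 ± 3.38 and 76.2 ± 1.44 CPM in E20 (log2 0.54, adjusted p = 5.83e-05), and the S6 kinase gene Rps6kb1 116 ± 4.40 and 112 ± 4.36 CPM in E20/p53 and 90.5 ± 1.29 and 97.0 ± 3.20 CPM in E20 (log2 0.28, adjusted p = 0.00157). None of these 3 overlapped between the groups, and neither did 23.2% of all genes. Of 17 genes under FOXO control or in insulin feedback 4 were higher and 1 lower, and 0 remained with the block correlation. Without E20 library 2 or any of E20/p53 libraries 4 to 6 there were 2 lower. Klf6, a tumour suppressor gene, rose (log2 0.54, adjusted p = 5.02e-04), and the insulin receptor substrate gene Irs2 rose with overlap between the groups (log2 0.71, adjusted p = 0.0198). Bcl2l11, the death factor Bim, fell to 29.8 and 31.6 CPM in E20/p53, against 35.1 and 55.3 CPM in E20 (log2 -0.52, adjusted p = 0.0173).

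Among EGF family and ERK feedback genes 3 of 20 were higher, 2 lower and 7 split by the E20/p53 block. With the block correlation 1 higher and 1 lower remained, and without E20/p53 library 2 there were 4 lower. Phlda1, an early ERK target, ran at 29.1 to 68.8 CPM (median 48.2) in E20/p53, against 118 to 128 CPM (median 122) in E20 (log2 -1.42, SE 0.23, adjusted p = 5.46e-04, block-adjusted p = 0.0106). Hbegf, a ligand of the EGF receptor, had 52.9 ± 3.19 and 18.97 ± 0.699 CPM in E20/p53 and 12.5 ± 0.580 and 2.69 ± 0.0864 CPM in E20 (log2 2.43, SE 0.54, adjusted p = 0.00489, block-adjusted p = 0.0243). It was highest in E20/p53 1 to 3, the block with the highest keratin levels, and without E20 libraries 4 to 6 its adjusted p was 0.0506. Of 15 AP-1 and immediate early genes 5 were higher and 2 lower, and 0 remained with the block correlation. The lower ones numbered 1 without any 1 of libraries 1 to 3 of either group. Myc, the growth factor-driven transcription factor, ran at 102 to 126 CPM (median 118) in E20/p53, against 55.5 to 72.9 CPM (median 66.7) in E20 (log2 0.83, SE 0.09, adjusted p = 2.92e-05, block-adjusted p = 0.0586). The stress factor gene Atf3 ran at 7.51 to 12.9 CPM (median 10.1) in E20/p53 and 1.08 to 3.95 CPM (median 1.71) in E20 (log2 2.40, SE 0.30, adjusted p = 1.07e-04). Egr1, a zinc finger factor of the early response, went the other way, with 28.1 to 58.3 CPM (median 38.0) in E20/p53 and 67.0 to 82.2 CPM (median 73.2) in E20 (log2 -0.91, adjusted p = 0.00304).

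Matrix genes showed how far the blocks can go apart. Of 21 collagens and matrix genes 2 were higher and 6 lower, all 8 with agreeing blocks, and 7 were split by the E20/p53 block. With the block correlation 1 higher and 1 lower remained. Medians of the block pairs were -1.54 and -1.12 for E20/p53 1 to 3 against the E20 blocks 1 to 3 and 4 to 6, and 0.37 and 0.28 for E20/p53 4 to 6. Col1a1, the main chain of type I collagen, named after its values were seen, had 26.2 ± 0.347 and 9256 ± 686 CPM in E20/p53 and 5231 ± 523 and 5012 ± 367 CPM in E20, and so lay below both E20 blocks in E20/p53 1 to 3 and above both in E20/p53 4 to 6. The blocks agreed for other matrix genes. Tnc, the wound matrix protein tenascin C, ran at 462 to 953 CPM (median 690.3) in E20/p53, against 118 to 195 CPM (median 157) in E20 (log2 2.11, SE 0.25, adjusted p = 6.09e-05, block-adjusted p = 1.56e-04). Spp1, or osteopontin, ran at 2192 to 2833 CPM (median 2546) in E20/p53, against 5563 to 6431 CPM (median 6005) in E20 (log2 -1.26, SE 0.12, adjusted p = 9.64e-06, block-adjusted p = 0.0183). Col4a1 and Col4a2, the basement membrane collagen chains that share a promoter region, were lower together, with 328 to 406 CPM (median 357) in E20/p53 and 608 to 824 CPM (median 694) in E20 for Col4a1 (log2 -0.96, adjusted p = 1.26e-05) and 193 to 288 CPM (median 236) in E20/p53 and 388 to 534 CPM (median 446) in E20 for Col4a2 (log2 -0.94, adjusted p = 1.43e-04). Among fibroblast markers 5 of 9 tested were lower and 0 higher. Their medians for E20/p53 4 to 6 were -0.72 and -0.26 against the E20 blocks 1 to 3 and 4 to 6, where the matrix medians were above 0. With the block correlation 1 fibroblast marker kept its call. That was decorin (Dcn), at 6.01 to 16.1 CPM (median 11.3) in E20/p53 and 85.7 to 194 CPM (median 131) in E20 (log2 -3.59, SE 0.32, adjusted p = 6.78e-06, block-adjusted p = 2.60e-04). Their part in the results on matrix, proteases and Hox genes was not tested.

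Of 18 matrix proteases and inhibitors 3 were higher and 9 lower, 2 and 7 with agreeing blocks, and 0 and 3 remained with the block correlation. Without any 1 of E20 libraries 4 to 6 or E20/p53 libraries 1 to 3 there was 1 higher. Mmp14, the membrane collagenase, ran at 329.6 to 464 CPM (median 386) in E20/p53, against 695 to 723 CPM (median 709.5) in E20 (log2 -0.87, SE 0.11, adjusted p = 8.02e-05, block-adjusted p = 0.0169). Adamts1, which cuts proteoglycans, ran at 42.4 to 85.5 CPM (median 62.9) in E20/p53, against 138 to 203 CPM (median 173) in E20 (log2 -1.48, SE 0.20, adjusted p = 1.82e-04, block-adjusted p = 0.00553). The gelatinase gene Mmp9 had 3.26 ± 1.04 and 4.58 ± 1.01 CPM in E20/p53 and 7.42 ± 0.644 and 35.8 ± 4.56 CPM in E20 (log2 -2.09, adjusted p = 0.00729). Of 8 transcription factors of the epithelial to mesenchymal transition 3 were lower and 0 higher, and 1 remained with the block correlation. Prrx1, a mesenchymal homeobox factor, ran at 140.5 to 236 CPM (median 191) in E20/p53, against 456 to 539 CPM (median 497) in E20 (log2 -1.43, SE 0.15, adjusted p = 2.65e-05, block-adjusted p = 9.95e-04), which is without overlap. Of 17 integrins and basement membrane receptors 2 were higher and 4 lower, and 0 remained with the block correlation. Without any 1 of E20 libraries 4 to 6 or E20/p53 libraries 1 to 3 there were 0 higher, and without any 1 of E20 libraries 1 to 3 there was 1. Itgb5, the beta chain of a vitronectin receptor, fell (log2 -0.56, adjusted p = 1.94e-04), and so did Itgb8, the beta chain that frees TGF-beta (log2 -1.07, adjusted p = 0.00494).

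In the signalling lists a few secreted proteins and receptors stood out by size. Of 10 Hedgehog genes tested 4 were higher and 1 lower, all with agreeing blocks, and 1 and 0 remained with the block correlation. The lower ones numbered 2 without any 1 of E20/p53 libraries 4 to 6. Hhip, which binds Hedgehog ligands and is itself a target of the pathway, ran at 5.20 to 265 CPM (median 133) in E20/p53, against 0 to 0.136 CPM (median 0) in E20. The E20/p53 blocks had 261 ± 3.22 and 6.52 ± 1.15 CPM, and both were above all E20 libraries (log2 8.85, SE 1.13, adjusted p = 1.12e-04, block-adjusted p = 0.0140). That separation was part of the rule that ranked Hhip first. The fitted size depends on the 1 read added, since few E20 libraries held a read. The receptor and target Ptch1 ran at 25.7 to 30.9 CPM (median 28.4) in E20/p53 and 7.83 to 18.5 CPM (median 13.1) in E20 (log2 1.20, SE 0.22, adjusted p = 0.00140, block-adjusted p = 0.219). Among the GLI factors Gli3 was higher (log2 0.49, adjusted p = 6.92e-05) and Gli2 lower, with 9.98 ± 1.78 and 9.81 ± 0.350 CPM in E20/p53 and 18.7 ± 1.77 and 38.5 ± 2.96 CPM in E20 (log2 -1.44, adjusted p = 6.15e-04). The ligand genes Shh, Ihh and Dhh were too low to be tested.

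Of 23 Wnt genes tested 8 were higher and 3 lower, all 11 with agreeing blocks, and 1 and 0 remained with the block correlation. Dkk3, a secreted relative of the Dickkopf inhibitors, ran at 24.0 to 38.0 CPM (median 29.6) in E20/p53, against 0.961 to 6.41 CPM (median 3.80) in E20 (log2 3.34, SE 0.47, adjusted p = 2.37e-04, block-adjusted p = 0.0158). Notum, an enzyme that removes the lipid of Wnt ligands, had 30.3 ± 0.773 and 2.06 ± 0.338 CPM in E20/p53 and 0.435 ± 0.154 and 0.0458 ± 0.0793 CPM in E20 (log2 5.20, SE 0.96, adjusted p = 0.00151, block-adjusted p = 0.138), and the ligand gene Wnt7b 13.5 ± 1.02 and 1.14 ± 0.246 CPM in E20/p53 and 0.350 ± 0.291 and 0.0906 ± 0.0405 CPM in E20 (log2 4.09, adjusted p = 0.00250, block-adjusted p = 0.287). Both were mainly in E20/p53 1 to 3. The receptor gene Fzd7 fell (log2 -0.59, adjusted p = 0.00293). Of 12 Notch genes 2 were higher and 1 lower, among them the glycosyltransferase gene Lfng (log2 1.30, adjusted p = 0.00783), whose call was lost without E20 libraries 4 to 6 (adjusted p = 0.07), and the target Hey2, which stayed under 1 CPM (log2 2.42, adjusted p = 0.00397). No Notch gene remained called with the block correlation. The lower one lost its call without E20 library 2 or 3 or any of E20/p53 libraries 1 to 3, and without E20/p53 library 5 there were 2. In the TGF-beta and BMP list 3 of 23 were higher and 2 lower, and 1 and 1 remained with the block correlation. Grem1, a secreted BMP antagonist, ran at 36.4 to 77.8 CPM (median 56.9) in E20/p53, against 446 to 569 CPM (median 494) in E20, with 74.8 ± 2.78 and 39.7 ± 2.85 CPM in the E20/p53 blocks and 538 ± 26.4 and 457 ± 10.6 CPM in the E20 blocks (log2 -3.19, SE 0.20, adjusted p = 5.71e-07, block-adjusted p = 7.98e-06). The activin gene Inhba had 19.97 ± 1.69 and 36.7 ± 4.89 CPM in E20/p53 and 14.6 ± 1.99 and 5.501 ± 0.741 CPM in E20 (log2 1.59, adjusted p = 0.00468), the ligand gene Tgfb2 55.2 ± 3.13 and 163 ± 3.69 CPM in E20/p53 and 43.5 ± 2.21 and 26.0 ± 1.38 CPM in E20 (log2 1.49, adjusted p = 0.00721), and Skil, an inhibitor of SMAD factors, rose by less (log2 0.63, adjusted p = 0.00178).

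Metabolic and stress lists gave mostly small shifts. Of 23 nuclear-encoded respiratory chain genes 10 were lower and 0 higher, all with agreeing blocks, with a median of -0.21 log2. Uqcrc2 of complex III had 140.3 ± 3.71 and 157 ± 1.22 CPM in E20/p53 and 203 ± 10.4 and 244 ± 7.22 CPM in E20 (log2 -0.58, adjusted p = 1.76e-04), and Cox5b of complex IV 30.8 ± 0.999 and 36.6 ± 1.70 CPM in E20/p53 and 50.8 ± 3.45 and 64.6 ± 4.49 CPM in E20 (log2 -0.77, adjusted p = 1.93e-04). None kept its call with the block correlation. In glycolysis and hypoxia 1 gene of 22 was higher and 1 lower, and 0 remained with the block correlation. Without E20 library 4, 5 or 6 there were 2 or 3 higher. The lower one was enolase (Eno1), with 448 to 612 CPM (median 520.3) in E20/p53 and 772 to 948 CPM (median 879.8) in E20 (log2 -0.75, adjusted p = 1.65e-04). Of 22 cholesterol genes 6 were lower and 0 higher, 3 of them with agreeing blocks, and 1 remained with the block correlation. Without any 1 of E20 libraries 4 to 6 there were 2 lower, and without any 1 of E20/p53 libraries 4 to 6 there were 3. The medians of the block pairs were 0.79 and -0.55 for E20/p53 1 to 3 against the E20 blocks 1 to 3 and 4 to 6, and -0.53 and -1.86 for E20/p53 4 to 6, so that the list did not go one way. Insig1, which retains the sterol sensor in the endoplasmic reticulum, ran at 28.6 to 41.0 CPM (median 34.7) in E20/p53, against 98.5 to 239 CPM (median 163) in E20 (log2 -2.13, SE 0.27, adjusted p = 9.59e-05, block-adjusted p = 0.00105), and E20 4 to 6 was the high block at 99.0 ± 0.580 and 232 ± 6.51 CPM in the E20 blocks. Of 18 genes of the unfolded protein response 5 were lower and 0 higher, 6 were split by the E20/p53 block, and 1 call remained with the block correlation. Without E20/p53 library 4, 5 or 6 there were 8, 8 and 10 lower. The medians of the block pairs were -1.06 and -1.55 for E20/p53 1 to 3 against the E20 blocks 1 to 3 and 4 to 6, and 0.06 and -0.06 for E20/p53 4 to 6. The disulfide isomerase gene Pdia6 had 378 ± 6.58 and 419 ± 4.20 CPM in E20/p53 and 642 ± 31.1 and 830.0 ± 22.4 CPM in E20 (log2 -0.87, adjusted p = 4.43e-05, block-adjusted p = 0.0209). Of 26 ribosomal protein genes 3 were higher and 8 lower, with Rps2 among the higher (log2 0.66, adjusted p = 3.28e-04) and Rps19 among the lower ones (log2 -0.84, adjusted p = 0.00276). None remained with the block correlation, and without any 1 of E20 libraries 4 to 6 or without E20/p53 library 1 or 3 there was 1 higher. Many of these genes have processed pseudogenes that can share reads.

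Of 16 targets of NRF2, the factor of the oxidant response, 7 were lower and 1 higher, all 8 with agreeing blocks, and 2 and 0 remained with the block correlation. Without E20/p53 library 4 or 6 there were 2 higher. Gstm1, a glutathione transferase, ran at 84.6 to 116 CPM (median 104) in E20/p53, against 245 to 467 CPM (median 343) in E20 (log2 -1.74, SE 0.19, adjusted p = 3.76e-05, block-adjusted p = 9.27e-04). Gsta3, another transferase, ran at 2.22 to 8.03 CPM (median 4.47) in E20/p53 and 19.7 to 37.6 CPM (median 25.9) in E20 (log2 -2.60, SE 0.32, adjusted p = 8.24e-05), and both have close relatives with shared sequence. The higher gene was glutathione reductase (Gsr), with 109.9 ± 1.65 and 93.2 ± 0.689 CPM in E20/p53 and 68.5 ± 3.40 and 69.8 ± 3.47 CPM in E20 (log2 0.55, adjusted p = 9.43e-05). Ferritin light chain (Ftl1) fell (log2 -0.58, adjusted p = 3.13e-04). Of 21 cell death genes 8 were lower and 1 higher, 6 and 1 with agreeing blocks, and 3 and 0 remained with the block correlation. Without any 1 of E20 libraries 4 to 6 or E20/p53 libraries 1 to 3 there were 5 lower. The higher one lost its call without E20 library 5 or 6, and without any 1 of E20 libraries 1 to 3 or without E20/p53 library 4 there were 2. Among the lower ones were 3 genes of lytic death. Casp4, the mouse caspase-11, which senses lipopolysaccharide, ran at 5.12 to 9.15 CPM (median 6.86) in E20/p53, against 32.0 to 43.7 CPM (median 36.5) in E20 (log2 -2.38, SE 0.15, adjusted p = 6.45e-07, block-adjusted p = 0.00358). Mlkl, the effector of necroptosis, had 62.4 ± 1.71 and 38.8 ± 1.43 CPM in E20/p53 and 93.3 ± 0.692 and 121 ± 1.40 CPM in E20 (log2 -1.11, adjusted p = 3.54e-04, block-adjusted p = 0.0102), and the pore protein gene Gsdmd 22.1 ± 0.915 and 52.1 ± 3.19 CPM in E20/p53 and 86.4 ± 4.27 and 81.2 ± 2.68 CPM in E20 (log2 -1.30, adjusted p = 0.00239, block-adjusted p = 0.0369). Apaf1, which forms the apoptosome, was lower by less (log2 -0.45, adjusted p = 0.00147). Of 7 heat shock genes 3 were higher and 2 lower, and 0 remained with the block correlation, with Hsph1 higher (log2 0.56, adjusted p = 1.74e-04) and Bag3 lower (log2 -0.53, adjusted p = 9.17e-04).

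Genes that mark position and lineage differed in both directions. Of 16 Hox genes tested 10 were lower and 0 higher, all 10 with agreeing blocks, and 1 kept its call with the block correlation. Without any 1 of E20 libraries 4 to 6 there were 5 lower, and without any 1 of E20/p53 libraries 1 to 3 there were 6. Hoxd8 had 0 ± 0 and 0.142 ± 0.0912 CPM in E20/p53, against 1.57 ± 0.0672 and 17.8 ± 0.493 CPM in E20 (log2 -5.69, SE 0.82, adjusted p = 2.81e-04, block-adjusted p = 0.0454), and Hoxa7 had 0.0187 ± 0.0324 and 0.305 ± 0.125 CPM in E20/p53 and 1.44 ± 0.491 and 14.3 ± 2.62 CPM in E20 (log2 -4.83, adjusted p = 0.00121). Hoxb2 had 0.0187 ± 0.0324 and 4.24 ± 0.891 CPM in E20/p53 and 18.04 ± 1.23 and 14.6 ± 0.940 CPM in E20 (log2 -4.87, adjusted p = 0.00905). The levels of Hoxd8 and Hoxa7 were low in all but E20 4 to 6. Tbx4, a limb and lung factor, ran at 0 to 0.119 CPM (median 0) in E20/p53, against 10.98 to 18.4 CPM (median 13.99) in E20 (log2 -7.62, SE 0.32, adjusted p = 2.03e-08, block-adjusted p = 0.00701), and only 1 E20/p53 library held any read, so the fitted size depends on the 1 read added. Of 15 imprinted growth genes 1 was higher and 4 lower, and Mest, a hydrolase gene, had 7.15 ± 0.700 and 135 ± 5.14 CPM in E20/p53 and 469 ± 41.0 and 289 ± 12.3 CPM in E20 (log2 -3.56, adjusted p = 0.00866). With the block correlation 0 higher and 1 lower remained, and without any 1 of E20 libraries 4 to 6 or E20/p53 libraries 1 to 3 there was 1 lower. Of 19 skeletal muscle markers tested 4 were higher and 3 lower, and 0 and 2 remained with the block correlation. The higher ones numbered 2 without any 1 of E20 libraries 1 to 4 and 6 or E20/p53 libraries 4 to 6, and the lower ones 5 without any 1 of E20/p53 libraries 4 to 6. The satellite cell factor gene Pax7 ran at 0.336 to 8.93 CPM (median 3.38) in E20/p53, against 34.0 to 62.9 CPM (median 48.2) in E20 (log2 -4.72, SE 0.87, adjusted p = 0.00147, block-adjusted p = 0.00790), while the muscle master gene Myod1 stood at 0 and 9.46 CPM in the E20/p53 blocks and 0.0844 and 0.157 CPM in the E20 blocks, and so was split by the E20/p53 block.

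The genes that rose most in every block pair, ranked by the smallest of their 4 block differences, came from no single list. After Hhip the highest were Prdm16, a zinc finger methyltransferase gene of brown fat and craniofacial development, at 9.77 to 15.97 CPM (median 13.2) in E20/p53 and 0 to 0.412 CPM (median 0.1001) in E20 (log2 6.36, SE 0.57, adjusted p = 8.26e-06), and the orphan receptor gene Gpr153, at 19.99 to 67.8 CPM (median 40.9) in E20/p53 and 0.334 to 1.34 CPM (median 0.512) in E20 (log2 5.84, SE 0.44, adjusted p = 2.12e-06). Neither gene overlapped between the groups, and all 4 of their block differences were far above 2-fold. Both traits follow from the rule that picked these genes and are no further support. Lrp2, or megalin, an uptake receptor that also binds Hedgehog proteins, ran at 7.53 to 13.7 CPM (median 10.7) in E20/p53 and 0.687 to 0.935 CPM (median 0.808) in E20 (log2 3.55, SE 0.18, adjusted p = 9.62e-08, block-adjusted p = 0.0111). Tbc1d9, a presumed regulator of RAB GTPases, ran at 29.1 to 37.2 CPM (median 32.9) in E20/p53 and 2.25 to 4.21 CPM (median 3.62) in E20 (log2 3.25, SE 0.15, adjusted p = 4.98e-08, block-adjusted p = 0.0124). Bach2, a repressor known from lymphocytes, ran at 6.49 to 8.13 CPM (median 6.91) in E20/p53 and 0.467 to 1.05 CPM (median 0.683) in E20 (log2 3.21, SE 0.22, adjusted p = 1.16e-06, block-adjusted p = 0.180).

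Some of the risen genes are best known from neurons. Rims2 and Cadps act in vesicle release: Rims2 had 35.6 ± 0.944 and 2.35 ± 0.191 CPM in E20/p53 and 0.259 ± 0.205 and 0 ± 0 CPM in E20, and Cadps 13.3 ± 0.535 and 1.15 ± 0.589 CPM in E20/p53 and 0.0227 ± 0.0393 and 0 ± 0 CPM in E20 (adjusted p = 4.52e-04 for Rims2 and 2.36e-04 for Cadps). Both were highest in E20/p53 1 to 3. Stmn2, which frees tubulin in growing axons, had 9.57 ± 0.413 and 7.25 ± 0.599 CPM in E20/p53 and 0.701 ± 0.166 and 0.0222 ± 0.0385 CPM in E20 (log2 5.05, adjusted p = 1.73e-04, block-adjusted p = 0.0354). Odaph, an enamel gene, had 21.6 ± 1.23 and 1.41 ± 0.287 CPM in E20/p53 and 0.0876 ± 0.0425 and 0.113 ± 0.0380 CPM in E20 (log2 5.11, adjusted p = 6.03e-04), and Fggy, a carbohydrate kinase gene, 6.997 ± 0.369 and 14.3 ± 0.406 CPM in E20/p53 and 0.178 ± 0.146 and 0.611 ± 0.244 CPM in E20 (log2 4.75, adjusted p = 1.95e-05). The 10 nerve and Schwann cell markers summed to 9.92 to 13.2 CPM in E20/p53 1 to 3 and to 75.03 to 83.3 CPM in E20/p53 4 to 6, against 62.98 to 64.5 CPM in E20 1 to 3 and 14.6 to 17.5 CPM in E20 4 to 6. Most of the sum was Tubb3 in E20/p53 4 to 6, at 69.6 to 78.8 CPM, and in E20 1 to 3, at 54.7 to 56.4 CPM. With 5 markers tested, 2 were higher and 1 lower, all with agreeing blocks, and 0 remained with the block correlation. At the lower end, beside the interferon genes and Tbx4, stood Inmt, a methyltransferase gene of indoleamines, with 0 to 0.0617 CPM (median 0) in E20/p53 and 7.76 to 11.7 CPM (median 9.81) in E20 (log2 -7.19, SE 0.26, adjusted p = 6.81e-09, block-adjusted p = 0.00412), and Slfn2, a schlafen gene, with 0.211 ± 0.0603 and 0.196 ± 0.178 CPM in E20/p53 and 13.9 ± 3.00 and 68.8 ± 2.64 CPM in E20 (log2 -6.99, adjusted p = 3.10e-06).

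For genes split by block the group means say little. Lrrn1, a leucine-rich repeat protein of neurons, had 0 ± 0 and 40.5 ± 0.365 CPM in E20/p53 and 3.02 ± 0.575 and 1.45 ± 0.403 CPM in E20, so that E20/p53 1 to 3 lay below both E20 blocks and E20/p53 4 to 6 above both. Fyb2, an adaptor gene, and Slc38a4, an amino acid transporter gene, had the same order, with 0.114 and 24.3 CPM in E20/p53 and 3.72 and 1.08 CPM in E20 for Fyb2, and 0.0374 and 23.2 CPM in E20/p53 and 0.603 and 0.972 CPM in E20 for Slc38a4. Tns4, a focal adhesion protein of epithelia, had the opposite order, with 341 ± 7.46 and 0.0219 ± 0.0380 CPM in E20/p53 and 6.06 ± 0.519 and 0.588 ± 0.150 CPM in E20. Hap1, a partner of huntingtin, and the guidance ligand gene Slit3 were ordered like Tns4, with 56.5 and 0.179 CPM in E20/p53 and 2.72 and 5.46 CPM in E20 for Hap1 and 29.9 and 0.0409 CPM in E20/p53 and 3.27 and 3.70 CPM in E20 for Slit3. Their fitted group differences ran from log2 -1.06 to log2 1.36, and the smallest adjusted p of the 6 was 0.661.

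Splits by the E20 block were fewer. Fgf10, a growth factor that mesenchyme sends to epithelium, had 5.47 ± 0.351 and 0.671 ± 0.190 CPM in E20/p53 and 0.0909 ± 0.104 and 31.7 ± 0.400 CPM in E20, so that E20/p53 lay between the E20 blocks (log2 -0.03, adjusted p = 0.991). Tmem30b, a flippase subunit of epithelia, had 0.817 ± 0.203 and 1.07 ± 0.0561 CPM in E20/p53 and 6.53 ± 0.415 and 0.0229 ± 0.0396 CPM in E20, and Ces2g, a carboxylesterase gene, 10.5 ± 0.474 and 4.15 ± 0.232 CPM in E20/p53 and 32.2 ± 0.455 and 0.360 ± 0.166 CPM in E20. These were high in E20 1 to 3 alone. Elavl2, an RNA-binding protein gene of neurons, had 1.51 and 0.459 CPM in E20/p53 and 0.0617 and 9.11 CPM in E20, and Mctp1, a calcium-binding membrane protein gene, 2.46 and 1.21 CPM in E20/p53 and 0.299 and 8.66 CPM in E20, both high in E20 4 to 6 alone. Cys1, a cilium protein gene, had 1.18 and 0.479 CPM in E20/p53 and 7.91 and 0.113 CPM in E20. None of the 12 split genes named passed the test, and their group means hide differences between blocks that were larger than 2-fold.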

How the data were processed

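The kit was TruSeq Stranded mRNA LT, per the labels' protocols, and the submitters' processing notes name bcl2fastq 1.8.4, Trimmomatic, featureCounts and mm10. For aligner, annotation, strand setting and scaling nothing is given in the sources used here. The authors deposited log2 values for 26143 genes and 18 libraries, and in each library they equal the log2 of reads plus 1 over a scaled total. Whole reads came out for 100% of values within 0.001, and CPM is these reads over the scaled total, which was 0.939 to 1.118 times the counted reads.

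The 12 libraries were compared with limma 3.58.1 (R 4.3.3) on those log2 values (mean-variance trend, two-sided) with Benjamini-Hochberg adjustment over 14625 genes that had 0.63 CPM or more (10 reads at median depth) in at least 3 libraries and at least 15 reads in all. The 13 X-inactivation and Y-linked genes among them were left out of the account. Since the test takes 6 libraries a group as independent, the block-adjusted p comes from a fit with duplicateCorrelation over the blocks. That fit applies the same correlation of 0.933 to all genes and still counts all 12 libraries. It therefore measures the spread between blocks only in part. The fits were also run on simulated data with block effects of the same spread in every gene. The gaps between the blocks of these libraries were not so even, so that run is no support for the p-values. Members, the 44 gene lists and tests were chosen with earlier results of these data known.

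Genes named are Trp53, Pik3ca, Cdkn1a and Mdm2, the 12 higher and 12 lower genes with the largest smallest block difference (called, agreeing blocks, no overlap, 5 CPM in the higher group), up to 4 called members a list with agreeing blocks by adjusted p, the 6 most strongly split genes of each kind, and the cell type markers. Not every gene under the rule is reported here, and others are marked where they occur. Coordinates are from GENCODE vM21 (mm10) and promoters from RefSeq (GRCm38.p6).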

Additional observations from a re-analysis of the deposited data

Results flagged for a closer look

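In 248 genes, and so 496 groups of 6 libraries, 15 values stood apart from the rest of their group by Dixon's test, which chance does in about 1 group in 20. That rate is for a group without blocks, and the gap between the blocks widens the range, so it need not hold here. Of the 15 values, 6 were values of 1 or 2 reads where all other libraries of the group held none. Cadps stood at 0.0681 CPM in E20 replicate 3 (1 read), Tbx4 at 0.119 CPM in E20/p53 replicate 4 (2 reads), Inmt at 0.0617 CPM in E20/p53 replicate 1 (1 read), Dlk1 at 0.117 CPM in E20 replicate 2 (2 reads) and Epcam at 0.0681 CPM in E20 replicate 3 (1 read). Krt18 also stood at 0.0681 CPM in E20 replicate 3 (1 read).

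Low epithelial genes also stood apart in E20 libraries of the first block. Cdh1 was at 0.273 CPM in E20 replicate 1 (4 reads), against at most 0.0681 CPM in the others, and Esrp2 at 0.351 CPM in E20 replicate 2 (6 reads), against at most 0.0682 CPM. Wnt7b was at 0.682 CPM in E20 replicate 1, against 0.0668 to 0.234 CPM in the other E20 libraries.

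Among genes with more reads, Bach2 was at 8.13 CPM in E20/p53 replicate 2, against 6.49 to 6.98 CPM in the others. Ercc5 was at 18.7 CPM in E20/p53 replicate 3, where the highest was 21.6 CPM, and Gli3 at 128 CPM in E20/p53 replicate 4, against 110.1 to 117 CPM. Dnajc3 was at 219.5 CPM in E20 replicate 2, against 203 to 208 CPM, Smtn at 94.4 CPM in E20 replicate 5, against 87.4 to 89.6 CPM, and Actn3 at 6.87 CPM in E20 replicate 3, against 8.03 to 8.65 CPM. For Bach2, Ercc5 and Gli3 the groups did not overlap, which for Bach2 was part of the rule that named it.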

How the results depend on the processing

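Of 28 alternatives, these moved the counts of all genes by over 1.5 times. Higher and lower genes numbered 2653 and 2327 in the 12 libraries, 4821 and 5055 with voom and sample quality weights, 126 and 322 with a 2-fold minimum, 79 and 366 with the correlation within blocks, 0 and 0 with the 4 block means and 4549 and 4326 without E20/p53 libraries 4 to 6. Lower p53 targets numbered 5 with the 2-fold minimum, 10 with the correlation and 0 with the block means, and lower interferon-stimulated genes and GTPases 0 with the block means. Higher mitosis and DNA replication genes numbered 0 under these 3 settings. With log2 of CPM plus 1, 444 in place of 717 genes differed 2-fold in all 4 block differences. Trp53 turned to -0.0636 log2 with voom and -0.11 without E20/p53 libraries 4 to 6. Pik3ca turned to 0.0396 log2 with plain totals, 0.0781 without E20 libraries 4 to 6 and 0.0169 without E20/p53 libraries 1 to 3. The causes were not tested.

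Leaving out single libraries gave 2217 to 2634 higher and 1980.0 to 2487 lower genes, 16 to 21 lower p53 targets, 30 to 31 lower interferon-stimulated genes, 13 to 14 lower GTPases, 10 to 15 higher mitosis and 13 to 15 higher replication genes. Of 164 named genes 134 to 155 kept their call and direction without a whole block. Whether the replicate numbers pair libraries could not be decided. Deviations from the group means correlated at 0.0405 to 0.0837 over the 6 same-number pairs, against -0.0795 to 0.077 for other numbers. In each group 2 libraries correlated best with their own number. These deviations hold the gap between the blocks, so they cannot show or exclude pairing of single libraries. With the replicate block 2461 genes were higher and 2239 lower, and 8 of 164 named genes lost their call. Genes under about 1 CPM rest on a few reads.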
